A study of Mus musculus with 3 samples.

Results

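Smooth muscle contractile genes were examined in primary mouse embryonic fibroblasts (MEFs) that lacked both the retinoblastoma gene Rb and the kinase gene ATM. The 10 genes were Acta2, Actg2, Myh11, Tagln, Cnn1, Des, Itga7, Rgs5, Smtn and Lmod1, taken as a list of genes of the contractile apparatus and its attachments. A probe was counted for a gene when its RefSeq accession belonged to that gene, which gave 11 of 39404 probes, and 10 of 20010 named genes on the array. Smtn had 2 probes and each of the others had 1. Mouse background (C57BL/6J), embryonic age (E10.0) and genotype (Rb-/-;ATM-/-) were shared by all groups, so no group had intact Rb. The 3 groups differed in the vector given: an empty vector (the control array), a vector expressing an shRNA against DNMT1 (the knockdown array), or a vector expressing ATM (the ATM-labelled array). Each culture was kept for 3 days in 4 ug/ml puromycin to select transduced cells and grown for 4 days more before RNA was taken. The labels describe the shRNA and ATM cultures as made from the cells of the empty-vector culture, and each group had 1 culture on 1 single-colour (Cy3) Agilent array. There were no replicates, so every difference below is a value of these arrays with no test and no p-value, and spreads between spots or probes are technical.

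Smooth muscle cells contract by sliding myosin along actin filaments, and they carry their own isoforms of actin, myosin heavy chain and several actin-binding proteins. Most of these genes are driven by the serum response factor SRF together with its coactivators of the myocardin family, which act at a DNA element called the CArG box. Fibroblasts in culture can take up part of this set, in particular Acta2 and Tagln, and are then described as myofibroblasts, whereas smooth muscle myosin Myh11 is the more restricted marker of mature smooth muscle.

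Across the arrays, from 21659 to 23476 of 39404 probes were well above background (from 55.0% to 59.6%). The lowest signal well above background was 37.8 intensity units on the control array, 25.1 on the knockdown array and 32.7 on the ATM-labelled array. Repeated spots of 1 probe had a median SD between 0.045 and 0.051 on the log2 scale. The Dnmt1 probe had a signal of 4908 on the control array and 956 on the knockdown array, in the direction of its label. Of 2 Atm probes, 1 was below background throughout and the other had signals of 430 (control), 366 (knockdown) and 409 (ATM-labelled). Since the place of these probes relative to the deletion and to the vector insert was not known, they check neither, and the ATM-labelled array is called so for its label alone. The control and knockdown arrays shared a slide and a scan day. The ATM-labelled array was alone on another slide and scan day, so in its comparisons slide, scan and vector cannot be told apart.

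Of the 10 genes, 6 were well above background on every array, namely Acta2, Actg2, Tagln, Cnn1, Itga7 and Smtn. A further 3, Des, Rgs5 and Lmod1, were not well above background on the control array and were on both others. Myh11 did not pass the background mark of the scanner software anywhere. The cells thus carried RNA of part of the smooth muscle list, Acta2 and Tagln among them, while the defining myosin of mature smooth muscle was not detected by its probe. Signals below are in intensity units before scaling. Log2 ratios are between signals scaled by the 75th percentile of their own array, and a gene with a log2 ratio of 1 or more in size was counted as at least 2-fold different.

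**Figure D1:**
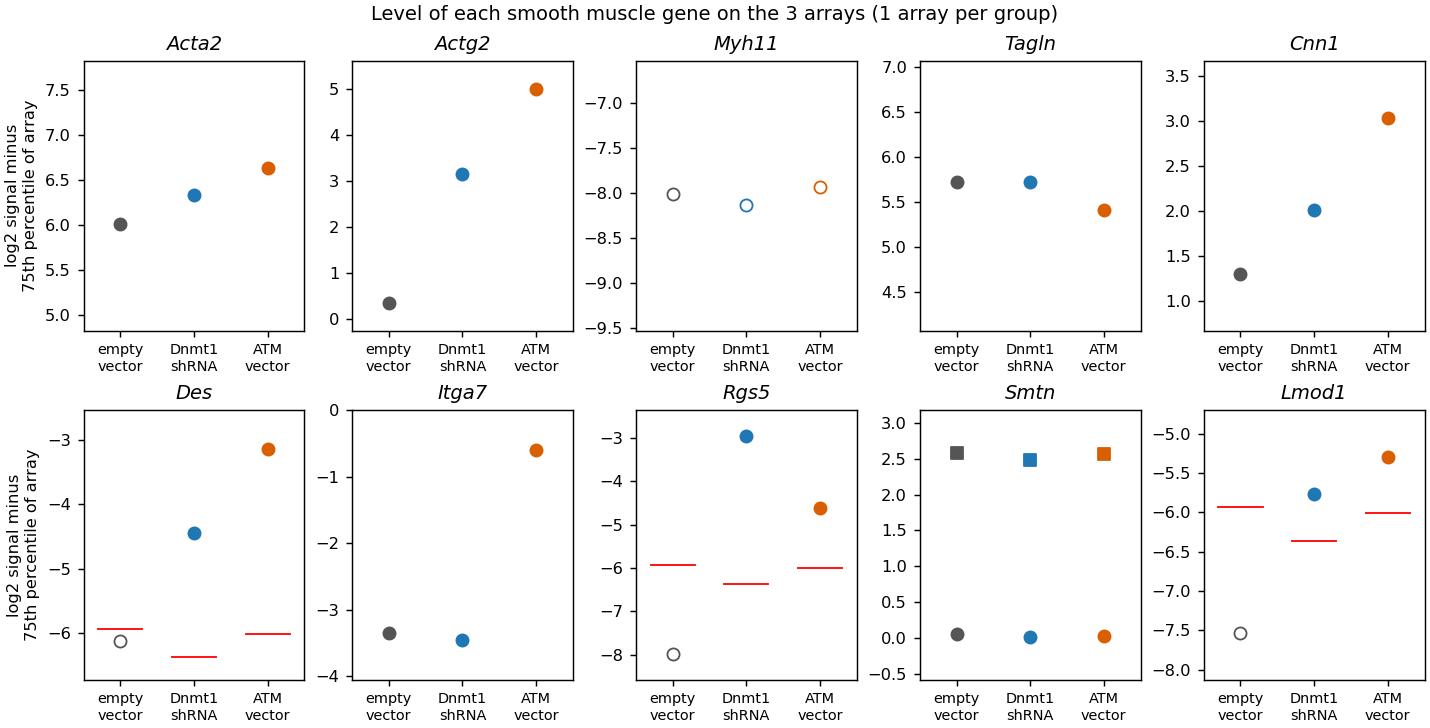
Log2 signal of each probe minus the 75th percentile of its array (vertical axis, with its own range in each panel) on the 3 arrays (horizontal axis, 1 array per group); filled symbols are well above background, open symbols are not, squares are the second Smtn probe and red lines mark the lowest level well above background on that array where it falls in the range. Actg2 climbs from 0.34 to 3.15 and 5.01, Itga7 is high on the ATM-labelled array alone, Smtn is flat, and the 3 open symbols of Des, Rgs5 and Lmod1 are all on the control array; levels of different probes are not comparable.

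The 2 smooth muscle actins form the thin filaments. Actg2, the gamma actin of visceral smooth muscle, had a signal of 2935 on the control array, 18337 on the knockdown array and 67598 on the ATM-labelled array. The 3 values were far apart, with the control array lowest and the ATM-labelled array highest. The log2 ratio to the control array was 2.81 (7.01-fold higher) on the knockdown array and 4.66 (25.3-fold higher) on the ATM-labelled array. In the order of all genes tested, Actg2 had the 102nd highest ratio of 13785 genes in the first comparison and the 25th highest of 13242 in the second. The scanner software gave an error of 10.0% for each of its 3 signals. In whole cultures, a higher signal from more cells that express a gene and from more RNA per cell cannot be told apart.

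Acta2, the alpha actin of vascular smooth muscle and of myofibroblasts, had a signal of 149827, 166183 and 208819 on the control, knockdown and ATM-labelled arrays. Its probe was spotted 10 times on each array, with an SD over the kept spots of 0.032 (10 spots), 0.039 (9 spots) and 0.025 (8 spots) on the log2 scale. The ranges of the kept spots did not overlap between arrays. The log2 ratio to the control array was 0.32 on the knockdown array and 0.62 on the ATM-labelled array, both under 2-fold (from 0.08 to 0.40 and from 0.31 to 0.63 under other processing). The difference between the ATM-labelled array and the knockdown array had no settled direction, with 0.30 in the main scaling and -0.09 after quantile normalization. Acta2 thus differed by far less than Actg2 although both encode smooth muscle actin.

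The other actin genes were set beside this pair because the probe sequences were not used here and actin genes are closely alike, so that a probe may also bind RNA of another actin. Actb, the cytoplasmic beta actin, had log2 ratios of 0.00 on the knockdown array and 0.47 on the ATM-labelled array. Actg1, the cytoplasmic gamma actin, had -0.09 and -0.11 over 5 probes, which ranged from -0.71 to 0.50 in the latter comparison. Acta1, the skeletal alpha actin, had 0.48 and 0.35. Actc1, the cardiac alpha actin, was well above background on the knockdown array alone, at 33.6 intensity units. Actb, Actg1 and Acta1 were thus under 2-fold against the control array in both comparisons. For Actc1 on the knockdown array the lower bound described below was -0.004 and the measured log2 ratio 2.06, so the size of its difference is not known. It had no value on the ATM-labelled array.

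**Figure D2:**
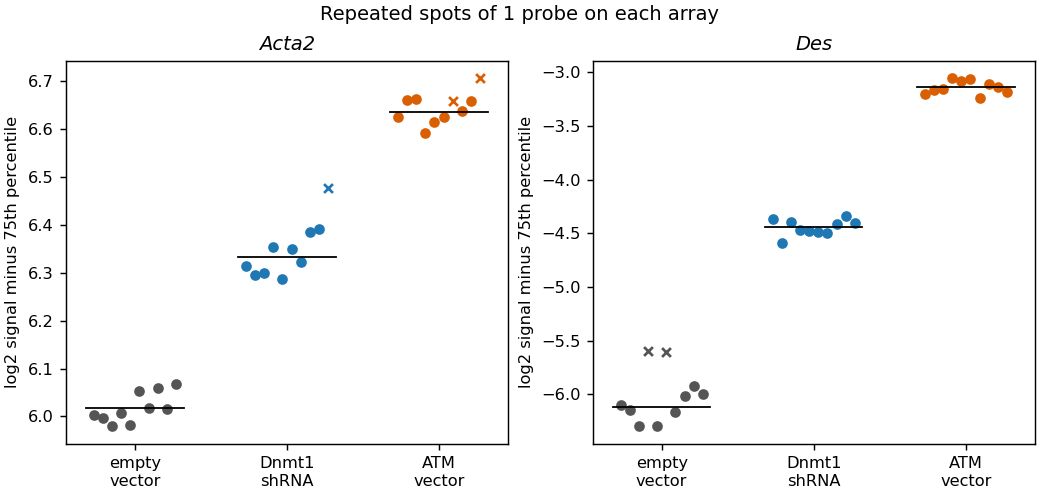
Log2 signal minus the 75th percentile of the array (vertical axis) for the 10 spots of the Acta2 and Des probes on each array (horizontal axis); crosses are spots that the scanner software marked as outliers, which were left out, and lines are the means of the kept spots. The kept spots of the 3 arrays form separate groups for each gene, with means of 6.02, 6.33 and 6.64 for Acta2 and -6.12, -4.44 and -3.14 for Des.

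The promoter of Acta2 is shown because SRF is known to drive this gene through CArG elements near its start. Promoter windows (250 bases before to 50 after the start, RefSeq, GRCm38.p6) were found for 6 of the 10 genes: Acta2, Cnn1, Des, Rgs5, Smtn and Lmod1. Entries for Actg2, Myh11, Tagln and Itga7 were not found. The strict CArG box (CC, then 6 bases that are A or T, then GG, the same pattern on both strands) was in 0 of the 6 windows and in 1.63% of all 32851 windows. A CArG-like sequence, with at most 1 G or C among the 6 inner bases, was in the window of Acta2 alone, where it occurred 2 times, and in 9.98% of all windows (0.822% held at least 2). This looser pattern was chosen after the sequences were seen and includes the strict one. The 250 bases before the Acta2 start (chr19:34255374-34255623, minus strand) follow 5′ to 3′, with both CArG-like sequences in capitals, which begin 84 and 34 bases before the start.
Acta2: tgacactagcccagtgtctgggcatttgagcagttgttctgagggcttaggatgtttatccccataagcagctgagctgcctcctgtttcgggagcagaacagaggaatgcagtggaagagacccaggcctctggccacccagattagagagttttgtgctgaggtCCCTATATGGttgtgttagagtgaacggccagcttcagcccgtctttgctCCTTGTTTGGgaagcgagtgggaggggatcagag

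The actin-binding proteins of the list did not share a single pattern. Cnn1, the smooth muscle calponin that restrains myosin activity on actin, had a signal of 5692 on the control array, 8313 on the knockdown array and 17266 on the ATM-labelled array. Its order over the arrays was that of Actg2, with smaller steps. The log2 ratio was 0.71 (1.64-fold) on the knockdown array and 1.74 (3.34-fold higher) on the ATM-labelled array. Between the ATM-labelled array and the knockdown array it was 1.03, and from 0.95 to 1.22 under other processing, so this last value sits at the 2-fold line.

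Tagln, the SM22-alpha protein that cross-links actin filaments, had a signal of 122348, 108855 and 89667 in the same order of arrays. It was level on the knockdown array (log2 ratio 0.00 after rounding, and from -0.24 to 0.11 under other processing) and somewhat lower on the ATM-labelled array (-0.31). Smtn, which encodes the smoothelins that bind stress fibres, had signals of 2411, 2089 and 2145 at the first probe and 13775, 11474 and 12386 at the other. Its log2 ratios over the probes were -0.07 on the knockdown array and -0.02 on the ATM-labelled array, so the arrays differed by less than the spread between probes of a gene (pooled SD 0.21 and 0.34 over the genes with several probes in these comparisons). Tagln and Smtn were therefore under 2-fold in every comparison while Cnn1 was not.

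Myh11, the smooth muscle myosin heavy chain, had signals of 8.95, 7.33 and 8.60, all under the detection level of their array, so no ratio is given. Its nonmuscle paralogue Myh9 had log2 ratios of 0.09 on the knockdown array and 0.15 on the ATM-labelled array, and Myh10 had 0.20 and -0.31. These nonmuscle myosin genes were under 2-fold, unlike Actg2 and Cnn1 on the ATM-labelled array.

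The 3 genes that were dim on the control array are given as bounds: the brighter level was divided by the lowest detected level of the dim array, or by the gene's measured level there if that was higher. Des, desmin, the intermediate filament protein of muscle cells, had a signal of 33.3 on the control array, 94.7 on the knockdown array and 239 on the ATM-labelled array. All 10 spots were well above background on each of the last 2 arrays and none of the 8 kept spots was on the first, while the 2 spots left out there as outliers, at -5.59 and -5.61 on the scaled log2 axis, were both well above background. Des was at least 2.81-fold higher on the knockdown array and at least 6.95-fold higher on the ATM-labelled array, and the ATM-labelled array was 2.47-fold above the knockdown array. With normexp background correction these log2 ratios were 0.79, 1.65 and 0.86, so the first and the last were then under 2-fold.

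Rgs5, a regulator of G protein signalling that marks pericytes and vascular smooth muscle, had a signal of 9.19 on the control array, 264 on the knockdown array and 85.5 on the ATM-labelled array. Unlike Actg2, Cnn1 and Des, it was highest on the knockdown array. It was at least 7.82-fold higher there and at least 2.49-fold higher on the ATM-labelled array than on the control array, and 3.14-fold lower on the ATM-labelled array than on the knockdown array. Lmod1, leiomodin, which nucleates actin filaments in smooth muscle, had signals of 12.5, 37.7 and 53.2. Its bounds were 1.12-fold and 1.55-fold, under 2-fold, although the measured log2 ratios were 1.75 and 2.23. Its signal on the knockdown array, 37.7, lay just under the 37.8 that was the lowest detected signal on the control array, so its detection there rests on the lower detection level of that array.

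The promoters of these 3 genes are shown with each CG in capitals, since CG is the dinucleotide at which Dnmt1 maintains methylation; methylation itself was not measured. The stretches are the 250 bases before the start of Des (chr1:75360042-75360291, plus strand), Rgs5 (chr1:169655251-169655500, plus strand) and Lmod1 (chr1:135324563-135324812, plus strand) in GRCm38.p6, with 10, 4 and 6 CG.
Des: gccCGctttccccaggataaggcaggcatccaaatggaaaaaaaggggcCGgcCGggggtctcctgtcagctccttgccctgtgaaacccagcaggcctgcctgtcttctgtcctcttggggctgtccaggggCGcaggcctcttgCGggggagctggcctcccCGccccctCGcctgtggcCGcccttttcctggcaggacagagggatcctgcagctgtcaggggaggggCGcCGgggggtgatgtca
Rgs5: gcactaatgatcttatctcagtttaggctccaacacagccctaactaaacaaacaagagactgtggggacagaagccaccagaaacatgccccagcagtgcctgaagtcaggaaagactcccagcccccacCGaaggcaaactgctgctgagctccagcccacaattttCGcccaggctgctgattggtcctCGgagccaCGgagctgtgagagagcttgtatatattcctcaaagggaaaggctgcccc
Lmod1: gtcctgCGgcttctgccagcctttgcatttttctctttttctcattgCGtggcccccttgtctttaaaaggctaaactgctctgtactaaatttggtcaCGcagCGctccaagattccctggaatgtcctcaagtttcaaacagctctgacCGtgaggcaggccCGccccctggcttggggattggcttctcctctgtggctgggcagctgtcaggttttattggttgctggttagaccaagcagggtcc
Over the whole 300-base windows the 6 genes held from 6 to 11 CG, near the median of 7 over all windows (quartiles 3 and 20). Smtn and Des held 11 each, and a part of the CG in any of the values was not tested. TATAAA, searched on both strands, was in 0 of the 6 windows and in 13.6% of all windows.

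Itga7, the integrin alpha chain through which muscle cells bind laminin, had a signal of 226 on the control array, 188 on the knockdown array and 1390 on the ATM-labelled array. Only the last stood apart: the log2 ratio to the control array was -0.10 on the knockdown array and 2.76 (6.77-fold higher) on the ATM-labelled array. Between these arrays it was 2.86 (7.26-fold). Other laminin-binding alpha chains had unlike values, with Itga6 2.31-fold higher and Itga3 7.97-fold lower on the ATM-labelled array than on the control array. Over 25 paralogues of the 10 genes, the integrins and actins included, 2 of 20 tested were higher and 1 lower on the knockdown array, and 3 of 20 were higher and 3 lower on the ATM-labelled array. Over all genes tested, 5.19% were higher and 1.57% lower on the knockdown array, and 7.55% and 6.82% on the ATM-labelled array. Smtnl1, dim on the control array, could only be called higher, and Rgs16, dim on the ATM-labelled array, only lower there. Of those measured on both arrays, 1 of 18 was higher and 1 lower on the knockdown array, beside 3.71% and 0.867% of all such genes. On the ATM-labelled array 3 of 17 were higher and 2 lower, beside 6.3% and 4.82%. Rgs4, higher in both comparisons, is also counted among the mural cell markers below.

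**Figure D3:**
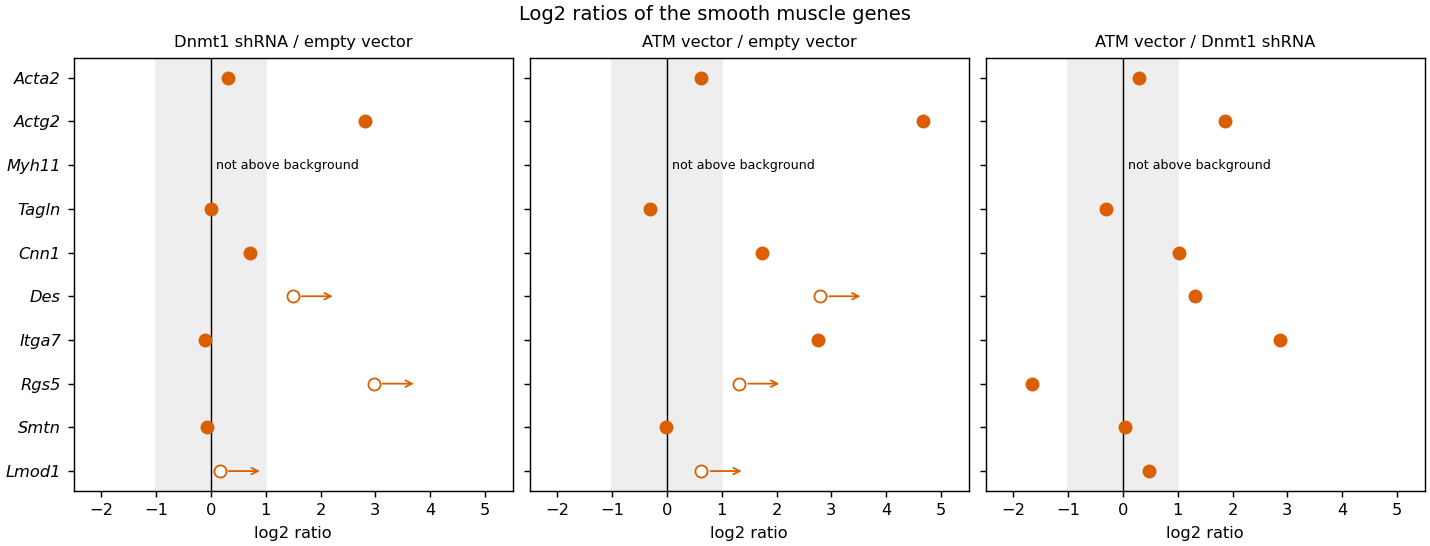
Log2 ratio (horizontal axis) of each gene (vertical axis) in the 3 comparisons; filled points are measured on both arrays, open points with arrows are lower bounds because the control array was not well above background, and the grey band is under 2-fold. Actg2, Cnn1, Des and Itga7 lie right of the band in both comparisons of the ATM-labelled array, Rgs5 lies left of it at -1.65 in the comparison with the knockdown array, and Myh11 has no value.

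The first comparison asked what differed when Dnmt1 was depleted. Of the 9 genes that could be compared, Actg2, Des and Rgs5, 3 in all, were at least 2-fold higher on the knockdown array and 0 were lower, beside 5.19% of all 13785 genes tested that were higher and 1.57% that were lower. The median log2 ratio was 0.32, against -0.02 over all genes tested. Des, Rgs5 and Lmod1 entered this median by detection on the knockdown side alone, so they could only be called higher. Of the 6 genes measured on both arrays 1, Actg2, was higher and 0 were lower, beside 3.71% and 0.867% of 12579 such genes, and their median was 0.16 against -0.03. Scaling to the median of each array lowered the median of all genes from -0.02 to -0.26 in this comparison, and Actg2, Des and Rgs5 stayed above 2-fold (log2 2.57, 1.25 and 2.73) while the median of the 9 genes fell to 0.08, the value of Acta2. With normexp background correction Des fell to 0.79, so 2 of the genes in place of 3 were at least 2-fold higher. Among all genes 444 in place of 716 were then higher.

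The second comparison asked what differed when ATM was put back, per the labels. Actg2, Cnn1, Des, Itga7 and Rgs5, 5 of the 9 genes, were at least 2-fold higher on the ATM-labelled array than on the control array and 0 were lower, beside 7.55% of 13242 genes that were higher and 6.82% that were lower. The median log2 ratio was 1.32, the bound of Rgs5, against 0.02 over all genes tested. Des, Rgs5 and Lmod1 entered here by detection on the ATM-labelled side alone, so they could only be called higher. Of the 6 genes measured on both arrays 3 were higher and 0 lower, beside 6.3% and 4.82% of 12166, and their median was 1.18 against 0.03. Both comparisons use the same control array, so a low signal there would raise both ratios of a gene, and neither is independent support for the other.

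The direct comparison of the other pair of arrays does not use the control array. Actg2, Cnn1, Des and Itga7, 4 of 9 genes, were at least 2-fold higher on the ATM-labelled array than on the knockdown array, and Rgs5 alone was lower. Of all 13871 genes, 7.08% were higher and 9.89% lower, and of the 12415 measured on both arrays, as all 9 were, 6.34% and 7.15%. The median log2 ratio of the 9 was 0.47, against 0.03 over all genes. With normexp background correction Des had 0.86 here, so 3 of the genes in place of 4 were at least 2-fold higher. Among all genes 626 in place of 982 were then higher.

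**Figure D4:**
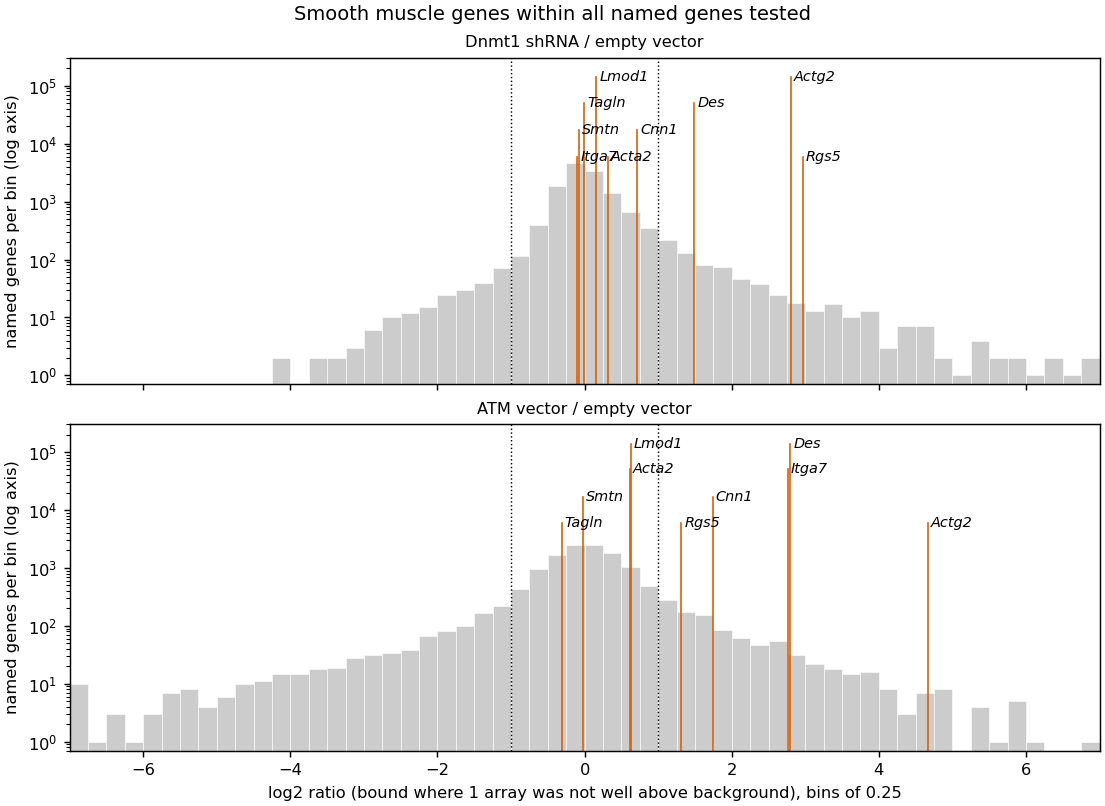
Number of named genes (vertical log axis) by log2 ratio in bins of 0.25 (horizontal axis) for the knockdown array (top) and the ATM-labelled array (bottom) against the control array, with values beyond 7 in the end bins; orange lines are the 9 smooth muscle genes with a value and dotted lines mark 2-fold. Itga7, Smtn, Tagln, Lmod1 and Acta2 lie within the bulk of genes at the top, while Actg2 lies far to the right in both panels, at 2.81 and 4.66.

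Other genes of smooth muscle contraction were read from a list of 41 chosen for their role. On the knockdown array 5 of 39 passed 2-fold upward and 1 downward, beside 5.19% and 1.57% of all genes tested. The median of the list was 0.14 (-0.10 when arrays were scaled to their median). Those higher were Sgca, a sarcoglycan of the muscle membrane, at 7.96-fold, Aoc3, an amine oxidase of smooth muscle, at 4.49-fold, Ppp1r14a, an inhibitor of myosin phosphatase, at 3.33-fold, the intermediate filament protein Synm at 2.71-fold and the adhesion protein Pgm5 at 2.32-fold. On the control array Sgca and Aoc3 had low signals of 41.9 and 62.8, against a lowest detected signal of 37.8. Of 5 Synm probes, 3 were detected on both arrays, with log2 ratios from 1.43 to 1.59, and the other 2 were not well above background on the control array, so they enter the Synm mean at measured values that are not reliable there. Fhl1, a LIM-domain protein, was 2.40-fold lower.

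On the ATM-labelled array, 8 of 34 tested genes of that list were at least 2-fold higher than on the control array and 3 lower. Over all genes tested these shares were 7.55% and 6.82%. The median of the list was 0.36. Ppp1r14a at 4.23-fold, Aoc3 at 3.11-fold, Synm at 2.92-fold and Tpm2, the beta tropomyosin of the thin filament, at 2.32-fold were higher. Fhl1 was 2.26-fold higher, opposite to its value on the knockdown array. Pgm5 had signals of 10961, 23426 and 612 at its brightest probe on the control, knockdown and ATM-labelled arrays. Over its 3 probes, of which 1 was not well above background there, it was 10.4-fold lower on the ATM-labelled array, opposite to its 2.32-fold higher level on the knockdown array. Prkg1, the cGMP-dependent kinase that relaxes smooth muscle, was at least 4.61-fold lower, and Itga8, another integrin alpha chain, was 2.22-fold lower. Myl9, the regulatory myosin light chain, had log2 ratios of 0.56 and 0.84 for the knockdown and ATM-labelled arrays, and Tpm1, the alpha tropomyosin, had 0.07 and -0.07.

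Among regulators of the programme, Srf and its coactivator Mrtfa were under 2-fold. Srf had log2 ratios of -0.26 on the knockdown array and 0.24 on the ATM-labelled array. Of its coactivators, Mrtfa had 0.24 and -0.58 and Mrtfb -0.19 and -0.41 as means over 3 probes. In the latter comparison the 2 Mrtfb probes detected on both arrays had -1.19 and -0.66, and the other, not well above background on the control array, had 0.64, so the probes disagree and no fold is read for Mrtfb there. Myocd, myocardin, had low signals of 52.5, 66.3 and 98.4, with ratios of 0.50 and 1.05. Klf4, which is known to oppose the contractile genes, had 0.05 and 0.76.

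Of 30 listed regulators, 1 of 29 tested was higher and 0 lower on the knockdown array (median 0.10, or -0.14 when arrays were scaled to their median), and 3 of 28 were higher and 5 lower on the ATM-labelled array (median -0.28). Over all genes tested, 5.19% were higher and 1.57% lower on the knockdown array, and 7.55% and 6.82% on the ATM-labelled array. Heyl, a target of Notch signalling in mural cells, was 3.51-fold and 4.44-fold higher on the knockdown and ATM-labelled arrays. The growth factor Pdgfb and Myocd were the others higher on the ATM-labelled array. On the control array Heyl and Pdgfb had low signals of 65.2 and 62.7 at their counted probes, against a lowest detected signal of 37.8. The 5 lower ones on the ATM-labelled array were Hey1, another Notch target, at 3.11-fold, Smad7, an inhibitor of TGF-beta signalling, at 3.02-fold, the ligand Tgfb3 at 2.64-fold, the TGF-beta signal transducer Smad3 at 2.40-fold and the transcription factor Gata6 at 2.13-fold. The other listed genes of TGF-beta signalling were under 2-fold there, with log2 ratios of -0.21 for Tgfb1, -0.85 for Tgfb2, -0.28 for Tgfbr1, 0.40 for Tgfbr2 and -0.85 for Smad2.

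Mural cells are the pericytes and smooth muscle cells around vessels, and 14 of their markers were set beside Rgs5. On the knockdown array 2 of 12 tested were higher and 0 lower, beside 5.19% and 1.57% of all genes tested. The 2 higher were Ndufa4l2 at 16.4-fold and Rgs4, another regulator of G protein signalling, at 3.66-fold. On the control array their probes had low signals of 47.2 (Ndufa4l2) and 57.4 and 71.8 (Rgs4), against a lowest detected signal of 37.8. On the ATM-labelled array 5 of 11 were higher and 1 lower, beside 7.55% and 6.82% of all genes tested. Rgs4 was 14.2-fold, Gucy1b1, a subunit of the nitric oxide receptor, 4.44-fold, Ndufa4l2 4.24-fold, Cspg4 3.68-fold and Cd248 2.23-fold higher, and Mcam was 2.34-fold lower. Like Rgs5, Ndufa4l2 was lower on the ATM-labelled array than on the knockdown array, by 3.86-fold, whereas Rgs4 was 3.89-fold higher. The summed scaled signal of the list was 33.7, 40.0 and 53.1 on the control, knockdown and ATM-labelled arrays, with Cd248, which adds most to it, at scaled log2 levels of 3.69, 3.89 and 4.85. Pdgfrb, a defining receptor, had log2 ratios of 0.35 and -0.15, and Kcnj8 and Abcc9, the channel subunits of pericytes, stayed below the background mark on all 3 arrays.

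Des, Itga7 and Actc1 are also expressed in striated muscle, so markers of that lineage were read as well. Of 30 markers, 12 were well above background on the control array, 17 on the knockdown array and 14 on the ATM-labelled array, with a summed scaled signal of 3.93, 5.42 and 6.96. Of all probes, 55.1%, 59.6% and 55.0% were well above background on these arrays. Actc1 and Neb, at 33.6 and 26.7 on the knockdown array, lay under the lowest detected signal of the control array, 37.8. Tnnt2, which adds most to the sum on the ATM-labelled array, had scaled log2 levels of -0.07, 0.47 and 1.64. The defining factors Myod1 and Myog and the creatine kinase Ckm stayed below the background mark on all 3 arrays. Against the control array 1 of 17 tested was higher and 1 lower on the knockdown array, and 4 of 15 were higher and 0 lower on the ATM-labelled array. Over all genes tested, 5.19% were higher and 1.57% lower on the knockdown array, and 7.55% and 6.82% on the ATM-labelled array. There the fast troponin Tnni2 was higher by 7.94-fold, the cardiac troponin Tnnt2 by 3.26-fold, the light chain Myl7 by at least 7.21-fold and Tnnt3 by at least 4.02-fold. Myl7 and Tnnt3 were dim on the control array, so they could only be called higher. Of the 11 markers measured on both of these arrays 2 were higher and 0 lower, beside 6.3% and 4.82% of all such genes. The part of these markers in the Des and Itga7 values was not tested.

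Markers of other cell types also differed between these arrays. Over all genes tested, 5.19% were higher and 1.57% lower on the knockdown array, and 7.55% and 6.82% on the ATM-labelled array. Of 16 fibroblast markers, 5 of 16 tested were higher and 1 lower on the knockdown array, and 2 of 15 were higher and 3 lower on the ATM-labelled array, where Postn, a matrix protein of myofibroblasts, was 7.53-fold higher and Lum 9.23-fold lower. Thy1 and Dpt were dim on the control array, and 3 of the 14 measured on both arrays were higher on the knockdown array. The summed scaled signal of the fibroblast list was 480, 547 and 666 on the control, knockdown and ATM-labelled arrays. A few bright probes weigh most in such a sum: between the control and ATM-labelled arrays the scaled log2 level of Col1a2 went from 7.06 to 7.72 and S100a4 was 3.38-fold higher, while Dcn, Lum and Fap were lower. Epithelial markers were higher for 4 of 9 tested on the knockdown array and for 1 of 6 on the ATM-labelled array, with 0 and 2 lower and summed scaled signals of 2.59, 3.40 and 2.73. Krt8, Krt18 and Dsp were detected on the knockdown array alone, and 1 of the 6 measured on both arrays was higher there. This was Krt14, at 4.24-fold, which was also 63.1-fold higher on the ATM-labelled array than on the control array (signals of 4491 and 78.3). Krt19 was 5.41-fold and Cldn7 3.21-fold lower on the ATM-labelled array. The sums of 2.59 and 2.73 thus hold opposite differences of single genes. Endothelial markers (5 and 4 tested) had 0 higher in either comparison and 0 and 1 lower, with sums of 2.10, 2.46 and 2.02. Blood markers (5 and 5 tested) had 2 and 0 higher and 0 and 1 lower, with sums of 2.34, 3.17 and 1.99. Neural markers, with sums of 10.69, 13.40 and 14.10, were higher for 0 of 6 tested and for 3 of 7. Of those measured on both arrays, 2 of 6 were higher in the latter. The part of any of these in the smooth muscle values was not tested.

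**Figure D5:**
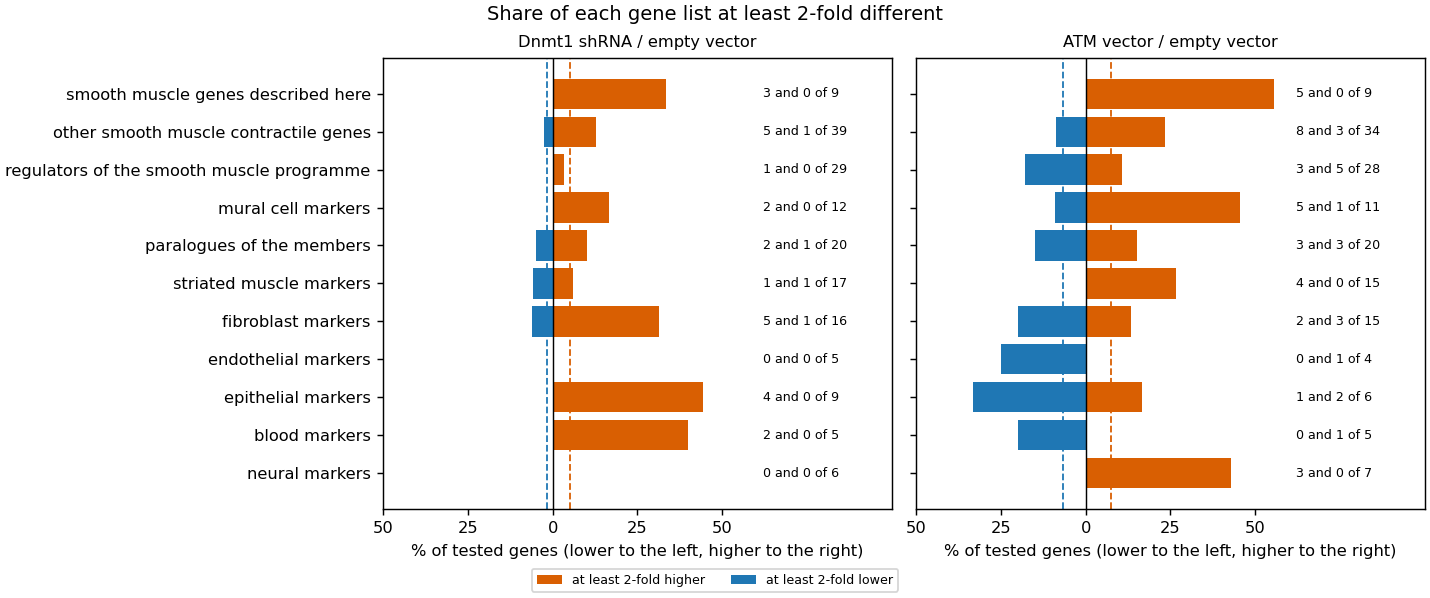
Share of tested genes of each list (vertical axis) at least 2-fold higher (orange, to the right) or lower (blue, to the left) than on the control array, in percent (horizontal axis), with the counts higher and lower beside each bar; dashed lines are the shares over all genes tested. The 10 genes described here, of which 9 had a value, have 3 and 5 higher and 0 lower, and several lists have fewer than 10 tested genes, so their bars rest on few genes.

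Genes with values most like those of the actins were sought over the 2 ratios to the control array, among 10860 genes whose probes were well above background on all arrays. Nearest to Actg2 were Naip2, an inflammasome sensor, at a distance of 0.71 log2 units with ratios of 2.13 and 4.86, Rgs4 at 1.25 with 1.87 and 3.83, and Ifitm1, an interferon-induced membrane protein, at 1.29 with 1.56 and 4.97. No gene lay within 0.25 log2 units of Actg2, whereas 410 lay that close to Acta2, the nearest being Sco2, Chm and Card6. Few genes have ratios as large as those of Actg2, while Acta2 lies in the bulk, so this contrast follows from the size of the ratios. Genes dim on any array, such as Des and Rgs5, were left out of the search. With 3 arrays, likeness of this kind is a description of 2 numbers per gene.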

How the data were processed

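RNA of 3 cultures was measured on 3 single-colour arrays. The authors deposited scanner output; the submitters' processing notes name Agilent Feature Extraction 10.7.3.1. Its processed signal is an intensity after background subtraction, with no scaling between arrays, per the file headers. The value table the authors deposited held the same intensities within 0.495% (column medians 75.2, 80.4 and 68.6), so it is linear, uncentred and holds 1 array per column. Marks per spot for background, saturation (0 spots) and outliers came from the same software, per the file headers.

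Control spots and from 167 to 235 outlier spots per array were left out, log2 signals were averaged over the spots of a probe, and each array was scaled by subtracting its 75th percentile. A probe was well above background if over 50% of its kept spots were. Probes counted if either array compared passed this, and a gene is the mean over its probes. Of 39429 probes, 26412 matched 1 symbol and 13017 none through RefSeq accessions (GRCm38.p6; the array was designed on mm9). The summed scaled signal of a list adds its genes' signals in units of the 75th percentile.

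The genes and lists were chosen with earlier results of these data known. Named are all 10 genes, up to 3 per list with the largest ratios against the control array among genes measured on both arrays, the regulators Srf, Myocd, Mrtfa, Mrtfb and Klf4, the nearest genes to Acta2 and Actg2, and Dnmt1 and Atm; other names from the lists were added after their values were seen, to complete a count or a gene family. The ratio step was tested on simulated data. Alternatives covered background correction, scaling, filters, outliers, the choice of probe and the value table. Python 3.11.15, numpy 2.4.6, pandas 2.3.3 and limma 3.58.1 in R 4.3.3 (normexp, offset 50) were used.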

Additional observations from a re-analysis of the deposited data

How the results depend on the processing

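No paired analysis was possible because each group has 1 array, and for the same reason no array could be left out and no slide block could be fitted. The planned normexp on the mean signal was not run, since that column is not in the scanner files used here; normexp on the median signal, the measured ratio in place of the bound and the looser CArG pattern were chosen after the data were seen. Over 10 alternatives, 233 values of single smooth muscle genes moved by less than the pooled SD between probes of a gene and 28 by more. Lmod1 on the knockdown array went from a bound of -0.11 to a measured ratio of 1.75, and a lower bound under 0 sets no direction. Acta2 between the other pair of arrays had no settled direction, nor had Tagln and Smtn near 0. A filter for genes well above background on all 3 arrays removes Des, Rgs5 and Lmod1 by construction. Of the 6 smooth muscle genes left, 1 was at least 2-fold higher than the control on the knockdown array and 3 on the ATM-labelled array. Between the other pair of arrays, 0 were lower on the ATM-labelled array. The share of all genes under this filter is not given. Among all genes measured on both arrays compared, the matching shares were 3.71%, 6.3% and 7.15%. Among all genes on the knockdown array against the control array, 716 were higher and 217 lower; with normexp these were 444 and 55, without a filter 1282 and 565, over genes detected on all 3 arrays 361 and 60, and 1083 were higher with measured ratios. In the ATM-labelled array against the control array 903 were lower, but 1370 without a filter and 563 over genes detected on all 3 arrays. Against the knockdown array 982 were higher and 1372 lower on the ATM-labelled array, but 626 higher with normexp and 833 lower over genes detected on all 3 arrays. The share of calls that were higher in the first comparison was 76.7%, but 89.0% with normexp, 66.4% after quantile normalization and 61.3% with the median of each array; between the ATM-labelled array and the knockdown array it was 41.7%, but 55.9% with the median of each array. The median of epithelial markers in that comparison was -1.37, but 0.0447 without a filter, where dim genes enter. The cause of the other changes was not tested. For genes that were dim on an array, signal over background limits the ratio to its bound.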
